A study of Mus musculus with 12 samples.

Results

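The mitochondrial carriers of the solute carrier family 25, whose gene symbols start with Slc25a, were described by the ATAC-seq peaks assigned to them in brown adipose tissue (BAT) and inguinal white adipose tissue (iWAT). Every peak whose assigned gene symbol starts with Slc25a was taken, with no choice by measured values. This gave 232 of the 98116 peaks of both tables. Of these, 132 of 58558 peaks lay in the BAT table, at 38 genes, and 100 of 39558 in the iWAT table, at 39 genes. The same 38 genes had peaks in both tissues, and Slc25a54 had one in iWAT only. No filter on low values was applied, so all 232 peaks were tested. Slc25a11, the oxoglutarate carrier, and Slc25a37, mitoferrin 1, were not analysed here, since the peaks used hold none assigned to them. The same held for other members, such as Slc25a5, Slc25a14, Slc25a43 and Slc25a53. Per the study's methods, only autosomal reads were kept, so a gene on a sex chromosome could have no peak.

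ATAC-seq measures how open chromatin is, by the reads that a transposase leaves at a site. The mice were C57BL/6, of genotype flox/flox (flox) or AKO, in which Adiponectin-Cre deletes BAF60a, the product of Smarcd1, in adipocytes. Both genotypes carried the floxed alleles, and whole tissue was used, so that cells in which the Cre was not active contributed reads. The BAT samples were 3 flox and 3 AKO mice, each sample from 1 mouse, whose age and housing temperature are not given in the sources used here. The iWAT samples were 3 flox and 3 AKO aliquots, cut from 1 pool per genotype of the fat pads of 6 mice aged 6 to 8 months, after cold acclimation that ended with 7 days at 10 °C. Tests in iWAT therefore measure the spread between aliquots of 1 pool, not between mice.

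Most of the carriers are proteins of the inner mitochondrial membrane, built from a repeated unit that forms a transport path. They exchange metabolites between the matrix and the cytosol: phosphate and adenine nucleotides for ATP synthesis, citrate and dicarboxylates for lipid synthesis and the citric acid cycle, acylcarnitines for fatty acid oxidation, and amino acids and cofactors. Brown fat burns fatty acids and branched-chain amino acids in its mitochondria to make heat. Its uncoupling protein UCP1 belongs to the same protein family, although its symbol does not start with Slc25a. BAF60a is a subunit of SWI/SNF complexes, which move or evict nucleosomes, and the comparison of AKO with flox addresses how open the chromatin near these genes was without it in adipocytes.

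Some of the peaks that the results turn on are shown with their mm10 (GRCm38.p6) sequence, read 5′ to 3′. They hold a match to a direct repeat, AGGTCA repeated with 1 base between, or, in the last, to the EBF core. The repeat is the kind of element that PPARγ and other nuclear receptors are known to bind, and up to 2 mismatches were allowed in its 12 fixed bases. The matches are in capitals. They are at chr11:120500621-120500813 (plus strand), downstream of the Slc25a10 gene, with 2 mismatches, at chr3:88418004-88418196 (plus strand), in an intron of the branched-chain amino acid carrier gene Slc25a44, with 1 mismatch, and at chr16:17936908-17937100 (minus strand), upstream of the citrate carrier gene Slc25a1, with 2 mismatches. The last is the whole peak chr12:108832390-108832597 (plus strand), in an intron of the basic amino acid carrier gene Slc25a29, with the EBF core CCCNNGGG in capitals.

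Slc25a10 downstream peak: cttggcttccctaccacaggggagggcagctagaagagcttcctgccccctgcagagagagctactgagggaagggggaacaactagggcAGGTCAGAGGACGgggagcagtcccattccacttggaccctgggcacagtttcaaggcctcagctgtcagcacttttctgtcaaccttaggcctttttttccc
Slc25a44 intronic peak: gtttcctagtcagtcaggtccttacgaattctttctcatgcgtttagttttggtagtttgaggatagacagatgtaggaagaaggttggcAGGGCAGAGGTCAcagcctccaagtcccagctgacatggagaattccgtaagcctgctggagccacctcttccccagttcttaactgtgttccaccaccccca
Slc25a1 upstream peak: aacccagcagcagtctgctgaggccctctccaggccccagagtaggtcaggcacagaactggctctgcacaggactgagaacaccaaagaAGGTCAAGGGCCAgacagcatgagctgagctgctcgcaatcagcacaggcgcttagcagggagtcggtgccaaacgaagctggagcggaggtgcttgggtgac
Slc25a29 intronic peak: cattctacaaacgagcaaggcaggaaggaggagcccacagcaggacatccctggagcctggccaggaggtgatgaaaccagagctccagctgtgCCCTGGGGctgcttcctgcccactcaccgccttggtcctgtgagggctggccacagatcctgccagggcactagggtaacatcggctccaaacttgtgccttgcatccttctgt

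These peaks were taken from those that the comparisons of AKO with flox turn on, and only peaks with a match are shown. The Slc25a10 upstream peak, with the lowest limma p of the iWAT members, held no match to any motif searched and is not shown. A match of letters is a description and says nothing of a bound factor.

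The libraries held 6336670 to 27500738 reads in peaks in BAT and 4066720 to 6691161 in iWAT. Values are normalized reads, that is, read counts scaled by the size factor of each sample. Replicates of a genotype differed by more than sampling noise in both tissues (chi-square per peak 4.71 to 11.9 in BAT and 2.08 to 2.78 in iWAT). In BAT, the deleted gene was checked by a Smarcd1 peak over an exon (chr15:99704112-99704521), where normalized reads were 136, 201 and 185 in flox and 23.7, 57.9 and 26.9 in AKO. The adjusted p of this peak was 0.269 in limma, the main test below, which did not call it, and 4.04e-11 in DESeq2. The iWAT table used here has a Smarcd1 peak only at the promoter, which does not check the deletion. In BAT, PC1, the main axis of variation over all peaks, held 55.6% of the variance and ran from -98.2 in flox sample 1 to 112 in AKO sample 2. These samples also had the most and the fewest reads in peaks in BAT (27500738 and 6336670). The part of depth in PC1, and in values without the covariate, was not tested. In iWAT, PC1 held 33.8% and separated the genotypes. As in the study's model, PC1 was a covariate in BAT only, so that fold changes in BAT need not match the ratios of the values printed here.

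Beside the Slc25a peaks, markers of cell types differed between genotypes. In BAT, the summed signal of 43 peaks at all 6 adipocyte marker genes was 19561 to 21174 in flox and 13389 to 18239 in AKO, and that of 15 peaks at all 5 preadipocyte and fibroblast markers was 1837 to 1879 in flox and 1949 to 2098 in AKO. In iWAT, adipocyte sums over 19 peaks overlapped (2736 to 3513 and 2821 to 3089). Endothelial markers summed to 766 to 855 in flox and 671 to 740 in AKO over 12 peaks at 4 of 5 genes, with no peak at Tie1. Macrophage markers summed to 268 to 327 in flox and 175 to 240 in AKO over 4 peaks at 3 of 5 genes, with no peak at Cd68 or Mrc1. The single lymphocyte peak, at 1 of 5 genes, was at 60.0 to 74.9 in flox and 75.9 to 92.2 in AKO in iWAT, with no peak at Cd3e, Cd3g, Cd4 or Cd79a, and overlapped in BAT. In iWAT, skeletal muscle markers summed to 780.5 to 971 in flox and 740.0 to 775 in AKO over 2 peaks at 2 of 5 genes, with no peak at Ckm, Myod1 or Tnnt3. These 2 peaks went in opposite directions (log2 fold changes of -0.27 and 0.05). The sums of the other lists overlapped between genotypes. In tissue samples, fewer cells of a type and less open chromatin per cell cannot be told apart, and the part of these shifts in the results was not tested.

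Peaks were placed by their midpoint against the GENCODE annotation, a promoter peak being one within 1 kb of a start site of its gene. Promoter peaks made up 37 of 132 members in BAT, at 33 genes, and 38 of 100 in iWAT, at 34 genes. Another 31 BAT and 14 iWAT peaks lay in introns, 16 and 12 in the body of another gene, 2 and 1 in untranslated exons, and 46 and 35 outside protein-coding genes. More than 10 kb from a start site lay 63 peaks in BAT and 35 in iWAT. The gene with the most peaks was Slc25a33, a pyrimidine nucleotide carrier, with 15 in BAT and 12 in iWAT. Slc25a51, the mitochondrial NAD+ carrier, had 9 and 10, and Slc25a25, a calcium-regulated ATP-magnesium/phosphate carrier, had 9 and 8.

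Per length, the mean signal of members ran from 82.6 to 1675 normalized reads per kb in BAT and from 62.6 to 920 in iWAT. The median member had 378 against 255 for all peaks in BAT, and 214 against 169 in iWAT. The promoter of Slc25a42, the mitochondrial coenzyme A carrier, had the highest value per length in both tissues. Of the members, 82 BAT peaks overlapped 82 iWAT peaks assigned to the same family, by at least 1 bp. These were 62.1% of the BAT and 82% of the iWAT members, at 36 genes. Any iWAT peak was overlapped by 62.9% of BAT members and 53.8% of all BAT peaks, and any BAT peak by 83% of iWAT members and 80.5% of all iWAT peaks.

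In BAT, no Slc25a peak passed the limma test at an adjusted p under 0.1 in either direction, and neither did any of the 58558 peaks (0.0% lower and 0.0% higher). At an unadjusted p under 0.05, 5 of 132 members (3.79%) were lower in AKO, against 5.59% of all peaks, and 3 (2.27%) were higher, against 3.46%. DESeq2 on the recovered reads called 0.217% of all peaks lower and 0.0803% higher but no Slc25a peak, of the 113 to which it gave an adjusted p, and edgeR (0.114% of all peaks lower and 0.029% higher) and limma with an intensity trend (0.0751% and 0.0154%) called none of the 132 either. All AKO samples lay below all flox samples at 15 members (11.4%), against 8.84% of all peaks, and above them at 9 (6.82%), against 8.77%. Counts of members were close to the background by each of these rules.

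The median log2 fold change of AKO over flox, on the log2(normalized reads + 1) scale, was 0.02 over the BAT members and 0.01 over all peaks, with 62 members below 0 and 70 above. Without the PC1 covariate, the median of the members was -0.13, with 85 below 0, and that of all peaks was -0.01. The summed signal of all 132 members was 45043 to 52293 in flox and 37647 to 46359 in AKO. The direction of the family as a whole in BAT therefore depended on the covariate. Promoter peaks had a median of 0.08 (all promoters 0.11) with PC1 and -0.21 (all promoters -0.04) without it.

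In iWAT, limma at an adjusted p under 0.1 called no Slc25a peak and no peak at all (0.0% lower and 0.0% higher). At an unadjusted p under 0.05, 7 of 100 members were lower, against 7.42% of all peaks, and 8 were higher, against 7.61%. All AKO aliquots lay below all flox aliquots at 10 members, against 10.3% of all peaks, and above them at 12, against 10.6%. DESeq2 called 3 members lower and 0 higher of the 95 to which it gave an adjusted p, against 0.569% and 0.493% of all peaks. All 3 lay at Slc25a10. Both edgeR and limma with an intensity trend called 4 members lower, all at Slc25a10, and 2 higher, at Slc25a29 and Slc25a1. Of all peaks, edgeR called 2.52% lower and 2.15% higher and limma with a trend 2.0% and 1.64%, so the 2 higher members of 100 are near the background. The median over the iWAT members was 0.01, with 48 below 0, and that over all peaks was 0.00. Member sums overlapped, at 15115 to 15361 in flox and 14844 to 15364 in AKO.

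**Figure D1:**
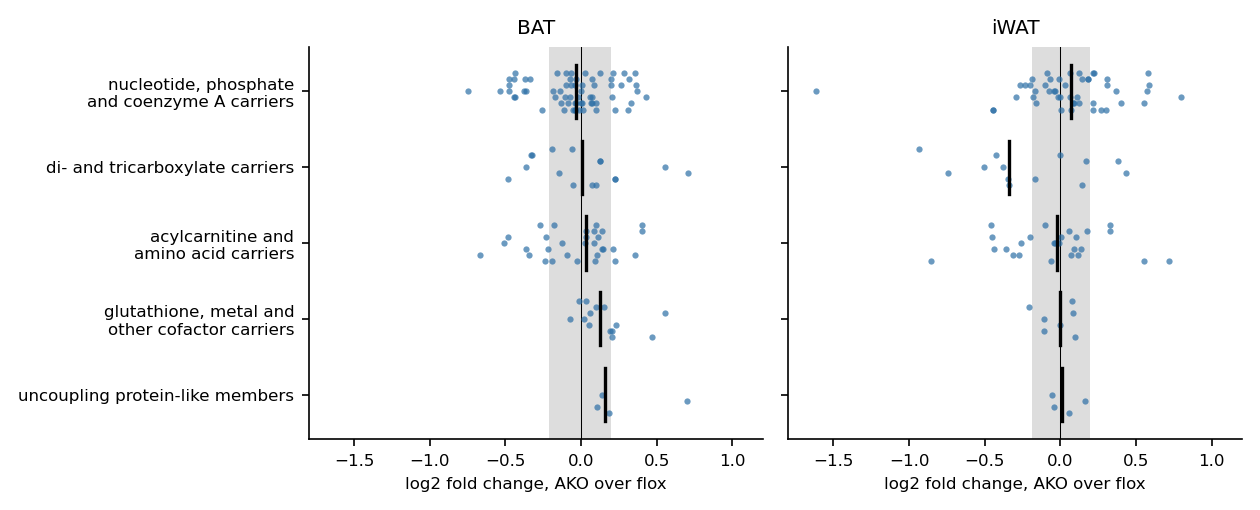
Log2 fold change of AKO over flox (x axis) for each Slc25a peak, grouped by what the carriers transport, in BAT (left, with PC1 as covariate) and iWAT (right). Black bars mark the median of each group and the grey band holds the middle 50% of all peaks; the iWAT di- and tricarboxylate group, with a median of -0.34 over 13 peaks, lies outside the band.

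Among the di- and tricarboxylate carriers, which move citrate, malate, succinate and related acids, 5 genes had 16 peaks in BAT and 13 in iWAT. Their median log2 fold change was 0.01 in BAT, with 8 peaks below 0, and -0.34 in iWAT, also with 8 below 0. In iWAT, 4 of the 13 (30.8%, against 7.42% of all peaks) had an unadjusted limma p under 0.05 and were lower, and at 5 (38.5%, against 10.3%) all AKO aliquots were below all flox aliquots. Of these 5 peaks, 4 belonged to Slc25a10 and 1 to Slc25a34.

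Slc25a10 exchanges malate and succinate for phosphate. All 5 of its iWAT peaks had lower means in AKO, and at 4 the genotypes did not overlap. At the peak upstream of the gene, normalized reads were 121, 108 and 111 in the flox samples and 61.1, 54.8 and 60.9 in the AKO samples. All AKO aliquots lay far below all flox aliquots, with an AKO mean 0.52 times that of flox. The log2 fold change was -0.93 ± 0.13 (SE) with an unadjusted limma p of 0.000131 and an adjusted p of 0.149, which misses the threshold, while the adjusted p was 0.00888 in DESeq2 and 0.00207 in edgeR. Over all fits run, those with a sample left out included and those with a PC1 term in iWAT excepted, the adjusted p ran from 0.00207 to 0.361. The peak lies inside an antisense non-coding gene, so position alone does not assign it to Slc25a10 rather than to that gene.

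At the peak downstream of the gene (chr11:120500427-120501169, midpoint 8958 bp from the start site), normalized reads were 280.1, 167 and 274 in the flox samples and 128, 145 and 146 in the AKO samples. Flox aliquot 2 lay near the AKO values and the other flox aliquots well above them. The log2 fold change was -0.74 ± 0.22 (SE), with adjusted p-values of 0.205 in limma and 0.00962 in DESeq2. Over the same fits the adjusted p ran from 5.76e-06 to 0.462. This is the peak whose repeat match is shown above. The promoter peak (chr11:120490911-120492653) had 587, 514 and 558 in the flox samples and 416, 467 and 427 in the AKO samples, a log2 fold change of -0.34 ± 0.13 (SE) and adjusted p-values of 0.29 in limma and 0.0682 in DESeq2. The intronic peak (chr11:120497510-120498631) had 422, 400.2 and 502 in the flox samples and 364, 369 and 308 in the AKO samples, a log2 fold change of -0.34 ± 0.15 (SE) and an adjusted p of 0.144 in DESeq2 and 0.0352 in edgeR. The genotypes did not overlap at either. At the fifth peak (14797 bp), with 13.9 to 37.7 normalized reads, they did overlap.

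Summed over its 5 peaks, Slc25a10 had 1436, 1217 and 1481 normalized reads in the flox aliquots and 992, 1073 and 956 in the AKO aliquots. The DESeq2 calls depended on single aliquots. DESeq2 called 0 Slc25a peaks lower without flox aliquot 1, flox aliquot 3 or AKO aliquot 2, 1 without AKO aliquot 1, 2 without AKO aliquot 3 and 4 without flox aliquot 2. The fold change of the upstream peak ran from -0.97 to -0.88 when each aliquot was left out in turn. The endothelial, macrophage and muscle marker sums given above were also lower in every AKO aliquot, and their part in the result was not tested. Single peaks did not all follow the sums. Fold changes were above 0 at 3 of 12 endothelial, 1 of 2 muscle and 0 of 4 macrophage peaks. Since the aliquots came from 1 pool per genotype, a difference between the pools of mice cannot be told apart from one between genotypes.

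**Figure D2:**
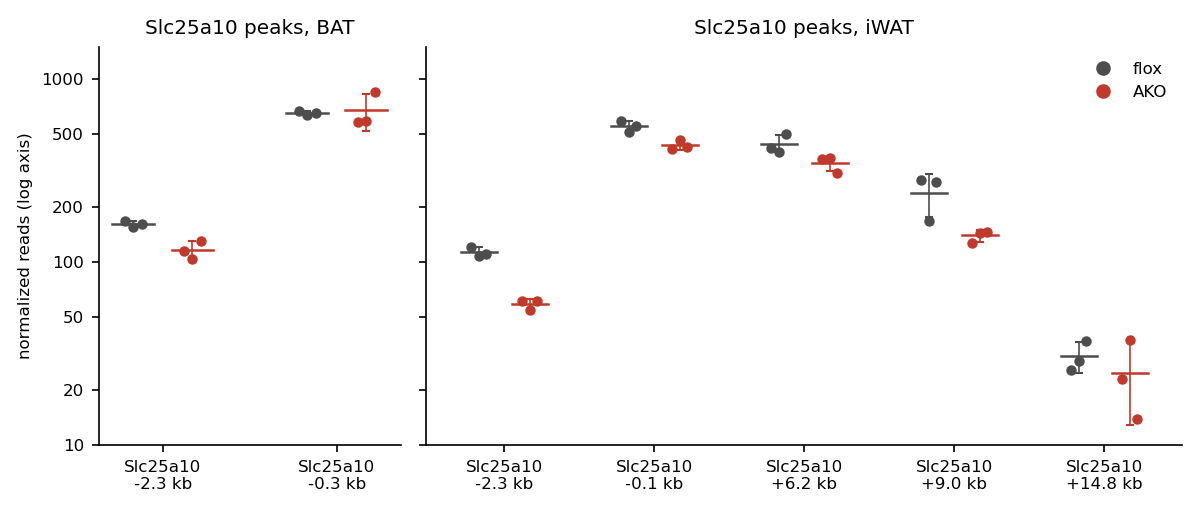
Normalized reads (log axis) at each Slc25a10 peak in BAT (left) and iWAT (right), ordered by distance from the start site in kb. Points are samples, lines the mean and bars the SD of 3 flox (grey) or 3 AKO (red) samples; at the upstream peak the AKO samples lie below the flox samples in both tissues.

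In BAT, 2 peaks of Slc25a10 were found. The upstream peak had 168, 155 and 162 in the flox samples and 115, 104 and 130.5 in the AKO samples. All AKO samples were below all flox samples here too, with a log2 fold change of -0.36 ± 0.18 (SE) and an unadjusted limma p of 0.0911. The promoter peak had 671, 635 and 655 in the flox samples and 587, 589 and 851 in the AKO samples, with AKO sample 3 above and the other AKO samples below the flox samples, and a log2 fold change of 0.13 ± 0.24 (SE).

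Slc25a34, a carrier related to these by sequence, had a peak inside the neighbouring gene Plekhm2 in both tissues. In BAT (chr4:141643231-141643888, -19738 bp), normalized reads were 187, 211 and 186 in the flox samples and 143, 182 and 140.1 in the AKO samples, with a log2 fold change of -0.48 ± 0.20 (SE) and an unadjusted limma p of 0.0438. In iWAT (chr4:141643592-141643874) they were 59.9, 61.1 and 47.3 in the flox samples and 41.5, 46.8 and 36.4 in the AKO samples, with -0.42 ± 0.16 (SE) and an unadjusted limma p of 0.0347. The genotypes did not overlap in either tissue, and neither adjusted p passed the threshold (0.544 and 0.294 in limma). At its promoter, BAT values were 684, 707 and 565 in the flox samples and 529, 578 and 448 in the AKO samples, with overlap, and the iWAT fold change was 0.17.

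Slc25a1 exports citrate, the source of cytosolic acetyl groups for fatty acid synthesis. Its upstream peak (chr16:17936765-17937178, -8752 bp) had 132, 151 and 139 in the flox samples and 179.8, 227 and 169 in the AKO samples in iWAT. All AKO aliquots were above all flox aliquots, with a log2 fold change of 0.43 ± 0.16 (SE) and adjusted p-values of 0.265 in limma, 0.19 in DESeq2 and 0.064 in edgeR. Over all fits run, a PC1 term excepted, the adjusted p ran from 0.064 to 0.782. The overlapping BAT peak had 573, 381 and 317 in the flox samples and 459.8, 361 and 509 in the AKO samples, and the genotypes overlapped. Its log2 fold change was 0.56 ± 0.21 (SE) with PC1 and 0.10 without, and the same held for the BAT peak at -6300 bp (0.70 with PC1, unadjusted limma p of 0.0146, and 0.17 without). At the Slc25a1 promoter the genotypes overlapped in both tissues, with log2 fold changes of 0.22 and -0.17.

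Of the remaining carriers of this group, Slc25a21, the oxoadipate carrier, had an intronic BAT peak (chr12:57178829-57180085) with 307, 229.8 and 295 in the flox samples and 206, 185 and 224 in the AKO samples. The genotypes did not overlap, and the log2 fold change was -0.32 ± 0.22 (SE) with an unadjusted limma p of 0.183. The promoter of Slc25a35 overlapped between genotypes in both tissues, with log2 fold changes of 0.22 and 0.00.

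The acylcarnitine and amino acid carriers had 31 peaks at 12 genes in BAT and 26 at 12 genes in iWAT. Their medians were 0.03 in BAT, with 14 peaks below 0, and -0.02 in iWAT, with 14 below 0. Promoter peaks of this group were found at 10 genes in BAT and 11 in iWAT. Taking the strongest of each gene, fold changes ran from -0.23 to 0.35 and from -0.44 to 0.33. The lowest unadjusted limma p at a promoter was 0.105 in BAT, at Slc25a38, the glycine carrier, and 0.0497 in iWAT, at Slc25a48.

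Slc25a44 carries branched-chain amino acids into mitochondria and is known for its role in brown fat. Its intronic BAT peak (chr3:88417914-88418548, 6876 bp) had 636, 653 and 603 in the flox samples and 357, 267 and 402 in the AKO samples. Every AKO mouse was well below every flox mouse, with an AKO mean 0.542 times that of flox. The log2 fold change was -0.67 ± 0.21 (SE) with an unadjusted limma p of 0.0138, and the adjusted p-values were 0.482 in limma and 0.103 in DESeq2, so that the peak was not called. Without the PC1 covariate, the log2 fold change was -0.90 and DESeq2 gave an adjusted p of 0.00459. That was the lowest over all fits run, those with a sample left out included, and the highest was 0.9998. With PC1, DESeq2 called it when AKO sample 2 or AKO sample 3 was left out. The adipocyte marker sums given above were also lower in every AKO mouse, and their part in the result was not tested.

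The same region in iWAT (chr3:88418076-88418429) had 122, 119 and 115 in the flox samples and 83.0, 104 and 90.9 in the AKO samples. Here too the genotypes did not overlap, with a log2 fold change of -0.36 ± 0.14 (SE), an unadjusted limma p of 0.0322 and an adjusted p of 0.286. The repeat match printed above lies within both peaks, at bases 88418094 to 88418106. At the promoter, BAT values were 845, 868 and 774 in the flox samples and 713, 562 and 730.1 in the AKO samples, also without overlap but with a log2 fold change of only -0.12 ± 0.18 (SE). In iWAT the promoter fold change was 0.00, with overlap, and the second intronic peak overlapped in both tissues (-0.36 and -0.01).

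**Figure D3:**
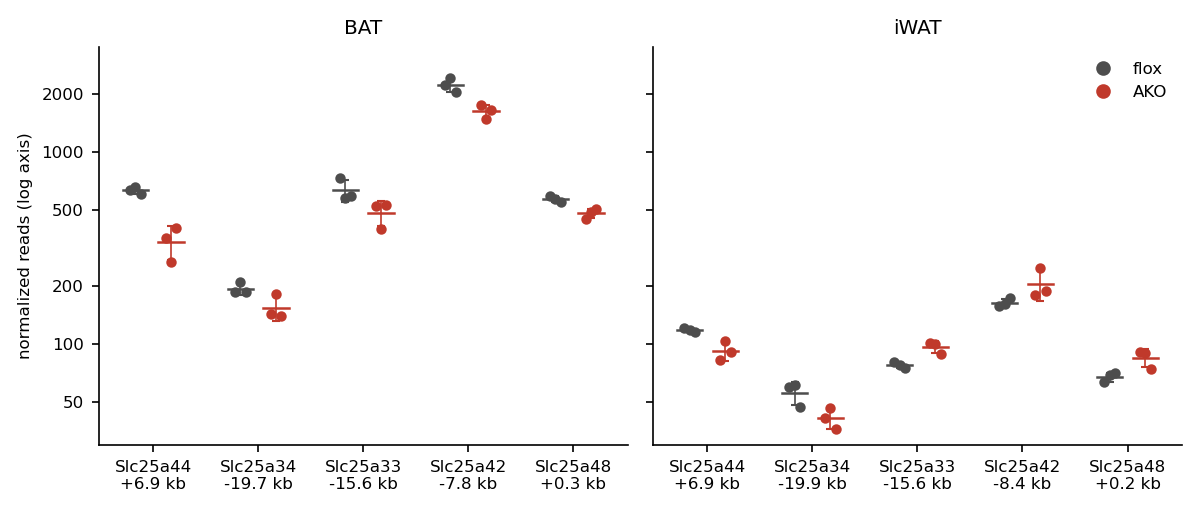
Normalized reads (log axis) at the overlapping peaks of 5 genes in BAT (left) and iWAT (right), labelled by their distance from the start site in kb. Points are samples, lines the mean and bars the SD of 3 flox (grey) or 3 AKO (red) samples; AKO is below flox in both tissues for Slc25a44 and Slc25a34, and below in BAT but above in iWAT for Slc25a33, Slc25a42 and Slc25a48.

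Slc25a48, a carrier linked to choline transport, had 7 peaks in BAT, 5 of them below 0, and 3 in iWAT, all above 0. Its promoter peak had 587, 570.5 and 547 in the flox samples and 448, 487 and 503 in the AKO samples in BAT, with a log2 fold change of -0.23 ± 0.18 (SE) and an unadjusted limma p of 0.23. In iWAT (chr13:56438313-56438749) it had 63.4, 68.9 and 70.6 in the flox samples and 91.1, 90.2 and 74.8 in the AKO samples, with 0.33 ± 0.14 (SE) and an unadjusted limma p of 0.0497. The genotypes did not overlap in either tissue, in opposite directions. A peak at -3822 bp in BAT had 1200.2, 1052 and 1088 in the flox samples and 874, 744 and 949 in the AKO samples, without overlap, against an iWAT fold change of 0.33 with overlap. The BAT peak at -2294 bp had the lowest limma p of the gene (0.0291) at a log2 fold change of -0.51, and its raw values overlapped.

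Slc25a29 carries basic amino acids. Its intronic iWAT peak (chr12:108832390-108832597), the one shown with the EBF core, had 42.8, 45.6 and 46.5 in the flox samples and 76.1, 83.3 and 65.2 in the AKO samples. All AKO aliquots were well above all flox aliquots, with a log2 fold change of 0.72 ± 0.14 (SE), an unadjusted limma p of 0.00124 and adjusted p-values of 0.151 in limma, 0.155 in DESeq2 and 0.0597 in edgeR. Over all fits run, a PC1 term excepted, the adjusted p ran from 0.0597 to 0.731. No BAT member overlapped it, and the BAT promoter of the gene had a log2 fold change of 0.10.

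Slc25a20, the carnitine-acylcarnitine carrier that brings fatty acids in for oxidation, had a single peak, at its promoter, in each tissue. In BAT it had 1163, 967 and 860.2 in the flox samples and 1048, 682 and 820.3 in the AKO samples, with overlap and a log2 fold change of 0.11 ± 0.19 (SE). In iWAT it had 133, 132 and 135 in the flox samples and 136, 139 and 141 in the AKO samples. The AKO aliquots were all above the flox aliquots, but by so little that the log2 fold change was 0.06 ± 0.12 (SE), less than its error. Of the aspartate-glutamate carriers of the malate-aspartate shuttle, Slc25a12 had an intronic iWAT peak of low signal (chr2:71339319-71339499) with 23.5, 32.2 and 19.8 in the flox samples and 10.4, 17.1 and 12.8 in the AKO samples and a log2 fold change of -0.86 ± 0.24 (SE) (unadjusted limma p of 0.00753). The overlapping BAT peak had a fold change of -0.18, with overlap. Slc25a13 had an intronic BAT peak far from its start (chr6:6101678-6102019) with 90.9, 79.1 and 93.1 in the flox samples and 76.3, 42.5 and 56.6 in the AKO samples, without overlap, and a fold change of -0.35, against -0.31 in iWAT.

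Peaks of the glutamate carrier gene Slc25a18 differed in direction. In iWAT, a peak at -1359 bp had 39.9, 52.3 and 37.9 in the flox samples and 65.7, 59.4 and 65.2 in the AKO samples, without overlap, and a log2 fold change of 0.55 ± 0.16 (SE) (unadjusted limma p of 0.00993). In BAT, 2 intronic peaks were higher in every AKO sample, with 107, 160.3 and 124 in the flox samples and 178, 174 and 178 in the AKO samples at the one nearer the start. Their fold changes were 0.40 and 0.41. The BAT peak with the lowest limma p of the gene (chr6:120785692-120786021, at 0.0474) had a fold change of -0.48 with PC1 and 0.28 without, a reversal, and its AKO mean was 1.21 times that of flox.

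The nucleotide, phosphate and coenzyme A carriers formed the largest group, with 66 peaks in BAT and 48 in iWAT at 13 genes. Their medians were -0.04 in BAT, with 38 peaks below 0, and 0.07 in iWAT, with 20 below 0. At their promoters, found at 12 genes in each tissue and again taking the strongest peak of each, fold changes ran from -0.10 to 0.28 in BAT and from -0.27 to 0.22 in iWAT, and no unadjusted limma p was under 0.05 (lowest 0.179 and 0.121). Slc25a3, the phosphate carrier, had 1948, 1428 and 1367 in the flox samples and 1306, 794 and 1269 in the AKO samples at its promoter in BAT. All AKO samples were below all flox samples, yet the fold change was -0.04 with PC1 and -0.51 without. In iWAT its promoter overlapped, at 0.06.

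Slc25a4, the ADP/ATP carrier of heart, muscle and brown fat, had 316, 311 and 263 in the flox samples and 341, 369.9 and 323 in the AKO samples at its iWAT promoter. The AKO aliquots were all above the flox aliquots there and at the peak at -5758 bp (41.3, 47.8 and 45.6 in the flox samples and 53.0, 50.2 and 59.9 in the AKO samples), with log2 fold changes of 0.22 ± 0.14 (SE) and 0.27 ± 0.14 (SE), and neither had an unadjusted limma p under 0.05. In BAT its promoter overlapped between genotypes, with 727, 681 and 618 in the flox samples and 559.8, 637 and 661 in the AKO samples and a fold change of -0.08. The promoter of Slc25a24, another ATP-magnesium/phosphate carrier, was higher in every AKO sample in BAT, at 100.3, 108 and 114 in the flox samples and 128, 183 and 154 in the AKO samples, with 0.28 ± 0.19 (SE) and an unadjusted limma p of 0.179. In iWAT its fold change was -0.01.

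Slc25a42 brings coenzyme A into mitochondria. It held the member peak of highest signal in each tissue, chr8:70219062-70221219 in BAT and the promoter chr8:70212105-70212962 in iWAT. The BAT peak had 2214, 2429.7 and 2056 in the flox samples and 1749, 1483 and 1641 in the AKO samples, a log2 fold change of -0.34 ± 0.18 (SE) and an unadjusted limma p of 0.106. An iWAT peak within it (chr8:70220327-70221150), which reaches into Armc6, had 159, 162 and 173 in the flox samples and 179.8, 249 and 188 in the AKO samples and a log2 fold change of 0.30 ± 0.16 (SE). The genotypes did not overlap in either, in opposite directions. All 5 BAT peaks of the gene were below 0. A second of them, in an intron, also did not overlap (169.8, 199 and 163 in the flox samples and 115, 112 and 142 in the AKO samples), nor did an intronic iWAT peak (116, 130.1 and 122 in the flox samples and 96.8, 106 and 110.1 in the AKO samples, fold change -0.23). At the promoter the genotypes overlapped in BAT, at 2205, 2254 and 1826 in the flox samples and 1761, 1344 and 2066 in the AKO samples, and in iWAT, at 793, 836 and 794 in the flox samples and 722, 782 and 803 in the AKO samples, with fold changes of 0.00 and -0.07.

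Slc25a33, which carries pyrimidine nucleotides used in mitochondrial DNA and RNA synthesis, had the most peaks. They were spread from -84845 to 15587 bp around its start in BAT. Of the 15 BAT peaks, 9 were below 0 (median -0.03), and of the 12 iWAT peaks 3 were below 0 (median 0.10). The summed signal was 4530 to 4902 in flox and 3896 to 4416 in AKO in BAT, and 1247 to 1381 in flox and 1369 to 1446 in AKO in iWAT. Only the BAT sums did not overlap.

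At 1 pair of overlapping Slc25a33 peaks, at -15573 bp in BAT, the genotypes did not overlap in either tissue and the directions were opposite. In BAT it had 728, 576 and 587 in the flox samples and 523, 398 and 529 in the AKO samples, and in iWAT 80.5, 77.8 and 75.7 in the flox samples and 101, 100.5 and 88.7 in the AKO samples. The log2 fold changes were -0.11 ± 0.18 (SE) and 0.31 ± 0.13 (SE), with unadjusted limma p-values of 0.551 and 0.0454. A BAT peak at -23924 bp was higher in every AKO sample (216, 259 and 345 in the flox samples and 363, 373 and 363 in the AKO samples) and one at -48037 bp lower (156, 160.3 and 189 in the flox samples and 125, 127 and 154 in the AKO samples). The lowest limma p of the gene in BAT was 0.0527 (fold change -0.48), at a peak with overlap. At the promoter the genotypes overlapped in both tissues, at -0.10 and 0.11.

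**Figure D4:**
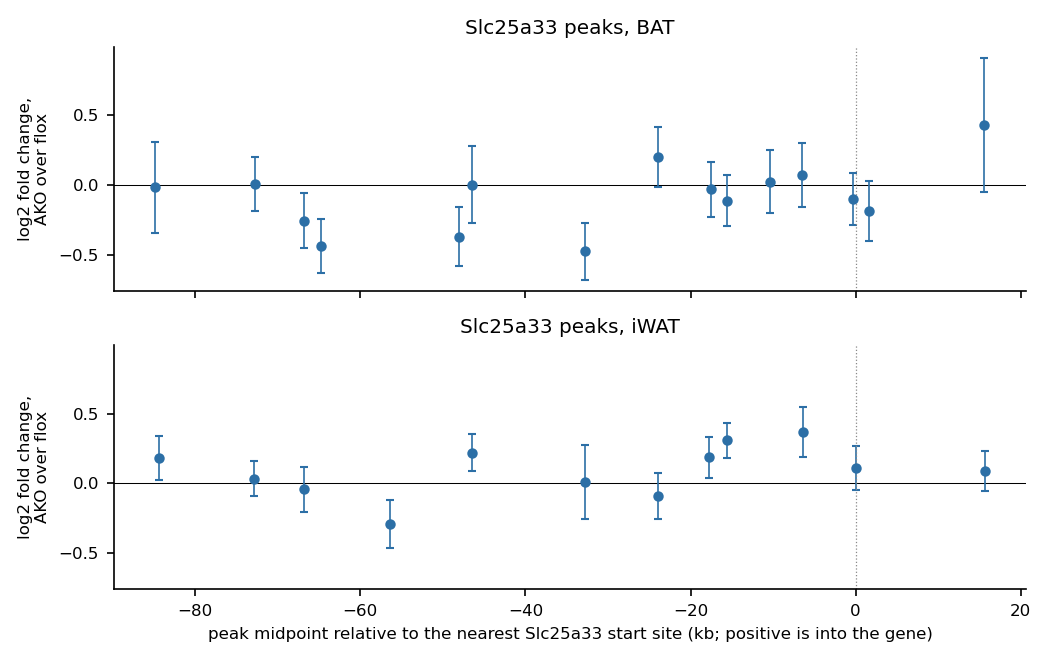
Log2 fold change of AKO over flox (y axis) at each Slc25a33 peak against the distance of its midpoint from the nearest start site in kb, in BAT (top, 15 peaks, with PC1 as covariate) and iWAT (bottom, 12 peaks). Points are fold changes and bars their SE; 9 BAT peaks lie below 0 and 9 iWAT peaks above it.

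Slc25a51 imports NAD+. In iWAT, 2 of its 10 peaks were higher in every AKO aliquot, and both lie inside other genes. The peak in Shb (chr4:45461685-45461950) had 41.3, 36.7 and 40.5 in the flox samples and 61.1, 54.8 and 63.1 in the AKO samples, a log2 fold change of 0.58 ± 0.13 (SE) and an unadjusted limma p of 0.00265, against -0.07 with overlap in BAT. The peak in Dcaf10 (chr4:45376669-45376896) had 25.7, 20 and 25.8 in the flox samples and 41.5, 30.8 and 35.3 in the AKO samples and 0.57 ± 0.17 (SE) (an unadjusted limma p of 0.0114), against -0.48 with overlap in BAT. At the promoter, BAT values were 1616, 1425 and 1125 in the flox samples and 1050.5, 767 and 1155 in the AKO samples, and the fold changes were -0.10 in BAT and -0.27 in iWAT, with overlap in both.

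Among the other members of the group, Slc25a16, linked to coenzyme A transport, had an iWAT peak at -6042 bp with 26.4, 21.1 and 19.8 in the flox samples and 36.9, 50.2 and 33.1 in the AKO samples. It did not overlap, with a log2 fold change of 0.80 ± 0.20 (SE) and an unadjusted limma p of 0.00414. Slc25a17, a peroxisomal carrier of cofactors, had the lowest limma p of all BAT members (0.0059, adjusted 0.442) at an intronic peak with 68.5, 94.6 and 95.7 in the flox samples and 53.6, 85.0 and 64.3 in the AKO samples. Its raw values overlapped, and its fold change was -0.75 ± 0.19 (SE) with PC1 and -0.36 without. Slc25a3 had the largest fold change of any iWAT member (-1.61 ± 0.54 (SE)) at a peak of very low signal (-13463 bp), with 20.7, 14.5 and 18.9 in the flox samples and 3.46, 2.28 and 15 in the AKO samples, and with overlap. The BAT peak of Slc25a25 at -18595 bp had a fold change of 0.36 (unadjusted limma p of 0.0745) with PC1 and -0.01 without it.

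The remaining genes of these groups are given by counts. Slc25a47, which has been linked to liver mitochondria, had 3 iWAT peaks, all below 0 (median -0.44) and all with overlap, and 1 BAT peak at -0.20. Slc25a31, a testis ADP/ATP carrier, had 3 BAT peaks, all below 0 and 1 without overlap, and 2 iWAT peaks. At Slc25a22, a glutamate carrier, and Slc25a36, a pyrimidine nucleotide carrier, 1 iWAT promoter peak each was lower in every AKO aliquot, with medians over the peaks of the gene of -0.04 and -0.20. In BAT, 1 peak each of Slc25a36, Slc25a38, Slc25a40 and Slc25a4 was higher in every AKO sample, with fold changes of 0.26, 0.14, 0.21 and 0.36, and the promoter of Slc25a12 was lower in every AKO sample at a fold change of -0.02. The peaks of Slc25a15, Slc25a23, Slc25a25, Slc25a32 and Slc25a45 overlapped between genotypes in both tissues.

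The cofactor and metal carriers had 14 peaks at 5 genes in BAT, 12 of them above 0 (median 0.12), and 7 at 5 genes in iWAT, 3 of them above 0 (median 0.00). Without PC1, 7 of the 14 BAT peaks were above 0. Slc25a26 carries S-adenosylmethionine, the methyl donor, into mitochondria. Its distal BAT peak (chr6:94400558-94400757, -99674 bp) had 29.8, 30.3 and 31.0 in the flox samples and 50.5, 50.2 and 36.5 in the AKO samples, without overlap, and a log2 fold change of 0.47 ± 0.22 (SE) (unadjusted limma p of 0.0726). Slc25a28, mitoferrin 2, which imports iron, had a BAT peak with 69.5, 107 and 73.7 in the flox samples and 134, 100.4 and 107 in the AKO samples and 0.55 ± 0.28 (SE), with overlap. At the promoter of the glutathione carrier gene Slc25a39 the genotypes overlapped in both tissues. BAT had 1754, 1494 and 1200.4 in the flox samples and 1297, 993 and 1278 in the AKO samples, iWAT had 493, 448 and 502 in the flox samples and 482, 548 and 492 in the AKO samples, and the fold changes were 0.03 and 0.08. Slc25a40, the other glutathione carrier gene, had a promoter peak in iWAT only, at a fold change of 0.09.

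The uncoupling protein-like members Slc25a27 (UCP4) and Slc25a30 (KMCP1) had 4 peaks in each tissue, with medians of 0.16 in BAT and 0.01 in iWAT. Their promoters overlapped between genotypes in both tissues, with fold changes from -0.04 to 0.18. The Slc25a30 peak at -16361 bp in BAT had 228, 166 and 144 in the flox samples and 294, 218 and 194 in the AKO samples, with overlap, a log2 fold change of 0.70 ± 0.26 (SE) with PC1 (unadjusted limma p of 0.0307) and 0.40 without. The 1 BAT and 1 iWAT promoter peak of Slc25a46, a member in the outer mitochondrial membrane, also overlapped (0.12 and 0.07).

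A list of 30 other mitochondrial transport genes, with the uncoupling proteins Ucp1 to Ucp3, the pyruvate carrier, the calcium uniporter and the porins, had 99 BAT peaks at 27 genes. By DESeq2, 7 of them (7.07%, against 0.217% of all peaks) fell and 0 rose (0.0803%). By limma at an unadjusted p under 0.05, 13 (13.1%, against 5.59%) were lower and 4 (4.04%, against 3.46%) higher. Most of the 13 lay at Ucp1, so the share of lower peaks is mainly that of Ucp1 and not of the list. The median with PC1 was 0.03, while the summed signal was lower in every AKO sample, at 38328 to 49446 in flox and 30835 to 37045 in AKO. Of the 7, 5 were at Ucp1, whose promoter peak had a log2 fold change of -1.52 ± 0.27 (SE). In iWAT the list had 60 peaks at 25 genes, of which 2 (3.33%, against 0.569% of all peaks) fell by DESeq2, 1 of them at Ucp2, and 0 rose (0.493%), with a median of 0.03. DESeq2 called 0 of 132 Slc25a peaks and 5 Ucp1 peaks in BAT. The study had already reported reduced accessibility at Ucp1 when the list was drawn up with it. The contrast therefore does not set the Slc25a family apart from other transport genes, and the difference between the lists was not tested.

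**Figure D5:**
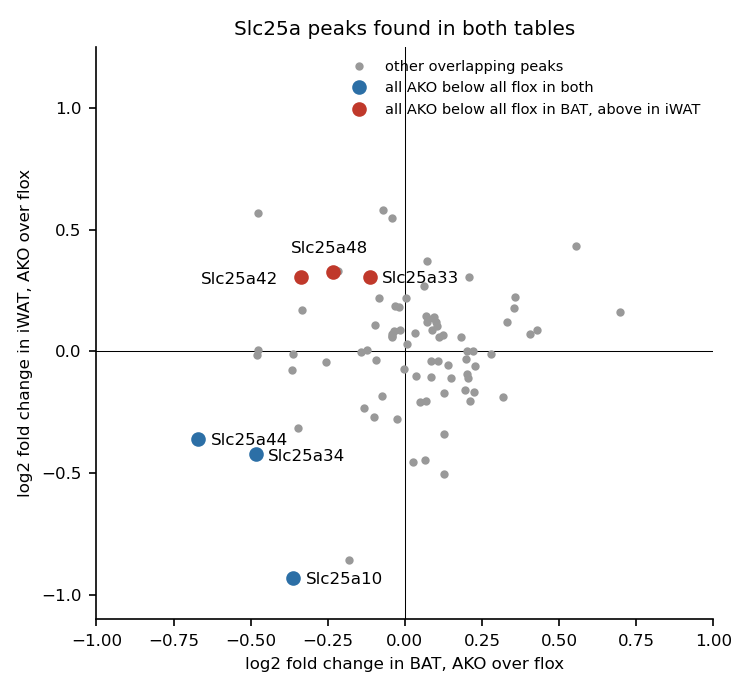
Log2 fold change of AKO over flox in BAT (x axis, with PC1 as covariate) and iWAT (y axis) for 82 pairs of overlapping Slc25a peaks. Blue points are pairs in which all AKO samples were below all flox samples in both tissues and red points pairs in which they were below in BAT and above in iWAT, 3 of each.

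Over the 82 pairs of overlapping peaks, 16 were below 0 in both tissues, 24 above 0 in both, 19 below in BAT only and 23 below in iWAT only. The tables were normalized separately, so directions and not sizes were set side by side. Across the pairs, the fold changes had a Pearson r of 0.15 and a Spearman rho of 0.04, whereas the log2 mean signals had r = 0.77. These are values across peaks, which share libraries and, within a gene, neighbourhood. All AKO samples were below all flox samples in both tissues at 3 pairs, those of Slc25a10, Slc25a34 and Slc25a44 described above. At no pair were they above in both. At 3 pairs, of Slc25a33, Slc25a42 and Slc25a48, they were below in BAT and above in iWAT. Over all peaks of each table, they were below at 8.84% in BAT and 10.3% in iWAT, and above at 8.77% and 10.6%. The share over all overlapping pairs was not counted, so these few pairs have no background of their own.

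Motifs were searched on both strands in the 300 bases around each peak midpoint. The direct repeat shown above was found at 14 of 132 BAT members (10.6%, against 6.4% of all BAT peaks) and at 11 of 100 iWAT members (11%, against 5.17%). Away from promoters the shares were 14.7% of members against 7.41% of all such peaks in BAT and 16.1% against 6.42% in iWAT. These are 14 and 10 peaks, at 9 genes in BAT. The BAT peaks with a repeat had a median fold change of -0.07, with 9 of 14 below 0, against 0.00 in the 81 distal members without one. In iWAT the 11 peaks, 1 of them a promoter peak, had a median of 0.07, with 4 below 0. The 52 distal members without a repeat had a median of 0.02. The ERR element TCAAGGTCA, which shares letters with the repeat, was at 1.52% of BAT members (all peaks 0.873%) and 1% of iWAT members (0.42%). The EBF core was at 15.2% (18.7%) and 20% (18.3%), TTGCNNAA of C/EBP at 12.9% (15.1%) and 16% (14%), TGCGCATGC of NRF1, with up to 1 mismatch, at 3.79% (5.76%) and 5% (7.26%), and CCGGAAG of ETS factors at 4.55% (4.4%) and 7% (6.01%). At promoters alone, the NRF1 match was at 0 of 37 members in BAT (all promoters 10.9%) and 2.63% of members in iWAT (12.2%), and the C/EBP match at 0 of 37 (6.6%) and 7.89% (6.12%).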

How the data were processed

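ATAC-seq libraries of BAT and iWAT, 3 flox and 3 AKO samples each, were analysed. The labels state 50000 nuclei per reaction and the study's methods 5000. Those methods also state that BAT and iWAT were run on different sequencers, with iWAT reads of 150 bp trimmed to 38 bp. Per the labels and the submitters' processing notes, the authors aligned 38 bp reads to mm10 with BWA 0.7.17-r1188, kept reads of mapping quality 30 or more, removed duplicates with Picard 2.8.14, called peaks with MACS2 2.1.1.20160309, kept those called in at least 2 replicates, and counted reads with bedtools 2.27.1. The deposited signal is normalized reads, counts divided by size factors of DESeq2 1.20.0, in 1 table per tissue. The other deposited columns hold the authors' mean, fold change, SE, statistic and p-values of their own comparison and were not used.

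All peaks of a table were fitted with limma 3.58.1 (lmFit and eBayes, two-sided) on log2(normalized reads + 1), with PC1 as covariate in BAT, Benjamini-Hochberg adjustment over the table and a threshold of 0.1. Whole reads were recovered from 100% of values within 0.01, and DESeq2 1.42.0 and edgeR 4.0.16 (R 4.3.3) were run on them as alternatives. Where DESeq2 gave no adjusted p, no call was made. Limma, DESeq2 and edgeR without a covariate were tested on simulated data that held no axis like PC1. The fits with PC1, with an intensity trend or with a block were not tested in this way. The authors' gene assignment was used, and positions came from the GENCODE annotation of mm10. Promoter peaks lay within 1 kb of a start site. Named peaks were the 6 with the lowest limma p per tissue and direction, their overlapping peaks in the other tissue, promoter examples by group, the gene with most peaks and the peak of highest signal per tissue. Other named peaks were chosen after their values were seen, mostly because the genotypes did not overlap. Members and lists were chosen with earlier results of these data known. The tables were normalized separately, so tests were made within a table. Reads without molecular identifiers are not independent molecules. Alternatives were other pseudocounts, scalings, filters, thresholds, covariates and tools, and each sample left out. Some items are not reported here.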

Additional observations from a re-analysis of the deposited data

Results flagged for a closer look

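At 3 of 82 pairs of overlapping peaks, all AKO samples lay below all flox samples in BAT and above them in iWAT. Over all peaks, 8.84% were that way lower in BAT and 10.6% higher in iWAT. The share over all overlapping pairs was not counted. Because the tables were normalized separately, the difference between the tissues was not tested. At the Slc25a33 peaks the log2 fold change was -0.114 in BAT and 0.3063 in iWAT. At the Slc25a42 peaks it was -0.3375 in BAT and 0.3037 in iWAT. At the Slc25a48 promoter it was -0.234 in BAT and 0.327 in iWAT. None of these 6 values had a limma adjusted p under 0.1. The BAT mice and the cold-acclimated iWAT pools also differed in tissue, sampling, sequencing and normalization, which cannot be told apart. PC1 was a covariate in the BAT fits only.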

How the results depend on the processing

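No Slc25a peak passed an adjusted p under 0.1 in limma under any filter, pseudocount or scaling run, or with any 1 sample left out (0 in each tissue and direction). These fits called no peak at all, except 1 lower in BAT with a pseudocount of 10, so 0 members says little about stability. Count-based and trend fits moved the counts. In iWAT, 3 peaks were lower by DESeq2, 4 by edgeR and 4 by limma with an intensity trend, and 2 were higher by edgeR and 2 by limma-trend, against 0. In BAT, DESeq2 without PC1 called 1 lower, the Slc25a44 intron. The trend fits, DESeq2 without PC1, its leave-one-out counts and counts at an unadjusted p were chosen after seeing the data. DESeq2 with 1 sample left out called 0 to 1 lower in BAT and 0 to 4 in iWAT. At an unadjusted p under 0.05, BAT members lower numbered 2 to 9 (9 without AKO sample 3) and higher 1 to 3 with 1 sample left out, and iWAT members 4 to 8 and 5 to 10. Against 5 lower and 3 higher in BAT with PC1, limma without it gave 5 and 7, and DESeq2 without it 11 and 6. Over all peaks, edgeR called 67 lower and 17 higher in BAT and 996 and 850 in iWAT, and limma-trend 44 and 9, and 792 and 648.

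Single peaks turned direction where PC1 was added or dropped, and the cause was not tested. Without PC1 in BAT, Slc25a18 (120785692) went to 0.28 in limma and 0.27 in DESeq2, and Slc25a25 (32469876) to -0.015 and -0.0051. In iWAT, where PC1 separates the genotypes, adding it gave 0.97 at the downstream and 0.028 at the promoter peak of Slc25a10, 6.57 at Slc25a3, -0.69 at Slc25a29 and -0.93 at Slc25a1. The unadjusted limma p was 0.61 and 0.98 at the Slc25a10 peaks. PC1 ran from -41.4 to -30.9 in flox and from 29.4 to 37.8 in AKO. Such a fit can hardly part genotype from PC1, so no direction is read from these iWAT values. Without PC1 in BAT, peaks at an unadjusted p under 0.05 were 2558 lower and 4435 higher, against 3274 and 2027 with it.

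With the replicate number as a block, 0 members were called in either tissue. Same-numbered samples correlated at 0.49, 0.06 and -0.24 in BAT and -0.04, -0.05 and -0.06 in iWAT. In BAT, flox sample 3 and AKO sample 2 correlated at 0.48. These values show no pairing by number, but with 3 samples per genotype they cannot exclude one. Depth limits low peaks, such as Slc25a3 in iWAT with 2 to 29 reads.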
